A study of Peromyscus maniculatus with 6 samples.

Results

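A-kinase anchoring proteins are scaffolds that hold protein kinase A (PKA) at particular places in the cell. Of 10 symbols listed for the family, 7 were found as gene names in the deposited table of 24281 genes: Akap1, Akap2, Akap3, Akap5, Akap8, Akap9 and Akap13. Akap10, Akap11 and Akap12 are not among the gene names used here and were not analysed. The family was chosen by the response of Akap3 to tunicamycin. By log2 fold change Akap3 stood in place 5 among the 8908 named genes whose log2 CPM averaged 1 or more (CPM, reads of a gene scaled to a common library size after TMM scaling). Its values in the tunicamycin comparison therefore describe why it was chosen and carry no test, while the other members were taken by name.

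The libraries came from primary fibroblasts of the ear, cultured from punches taken from 3 deer mice of the BW stock of Peromyscus maniculatus at 4 weeks of age, BW35770, BW35772 and BW35773. Each animal gave 1 control and 1 tunicamycin culture, and no genetic change is stated for any animal. Tunicamycin was present for 5 h before RNA extraction, at a concentration the labels write as 5 mg per mL. The unit may be a slip in the labels, since nothing else here states the dose. It blocks N-linked glycosylation and so loads the endoplasmic reticulum (ER) with misfolded protein, which sets off the unfolded protein response, the subject of the series. The labels do not say what control wells received. Each group is thus 1 culture from each of 3 animals at a single time, and p-values measure the spread between those cultures.

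PKA is a tetramer of regulatory and catalytic subunits that falls apart when cyclic AMP (cAMP) binds the regulatory pair. Anchoring proteins dock the regulatory subunits through a short amphipathic helix and often hold phosphatases, phosphodiesterases or other kinases at the same spot. They share that docking function and not a common fold, so that the family reaches from mitochondria and the cell membrane to the centrosome and the nucleus.

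Libraries held 37852385 to 49352126 counts on genes, and none was a copy of another (chi-square per degree of freedom from 27.03 to 249 over 15 pairs of libraries). Fibroblast markers were high, as the label states the cells to be, with summed levels of 9 measured genes of 15353 to 21539 CPM in controls and 15787 to 20729 CPM with tunicamycin. Cartilage markers were also high, at a sum of 1896 to 8424 CPM in controls and 2110 to 8981 CPM with tunicamycin, and were lowest in both libraries of BW35770. Ptprc, the pan-leukocyte marker, and Krt5, a basal keratinocyte keratin, reached at most 0.0250 and 0.0668 CPM, and Krt1 and Dsg3 were at 0 in every library. Other genes of those lists were present: Krt14 stood at 2.23 to 22.7 CPM and Cd68, a lysosomal protein abundant in macrophages, at 68.6 to 175.2 CPM. Summed levels were 4.78 to 23.0 CPM in controls and 2.65 to 13.1 CPM with tunicamycin for keratinocyte markers, and 86.5 to 175.5 CPM and 69.1 to 153.5 CPM for macrophage markers. Melanocyte and Schwann markers, mostly S100b and Mitf, summed to 98.6 to 145.8 CPM in controls and 80.7 to 106.2 CPM with tunicamycin. The part of such cells in the results was not tested. Of 27 tested markers over 7 cell type lists, 0 were called with tunicamycin (edgeR quasi-likelihood test, adjusted p under 0.05), against 3 at an unadjusted p under 0.05, 0 with DESeq2 and 0 with limma-voom; the share called over all tested genes was 2.58%. With the animal as a block 2 were called (5.47% over all genes), Krt14 and S100b, both lower. In these bulk libraries fewer cells of a type and less RNA per cell cannot be told apart.

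Akap3 encodes an anchoring protein best known from the fibrous sheath of the sperm tail. In the deposited table it is ENSPEMG00000010840 on the minus strand of scaffold KI615668.1, bases 2003882 to 2023896, with 3 exons of 349, 2298 and 96 bases. Control cultures of BW35770, BW35772 and BW35773 held 105, 68 and 59 of its reads, or 2.48, 1.86 and 1.48 CPM. The tunicamycin cultures of the same animals held 1089, 1048 and 728 reads, or 24.2, 20.1 and 18.2 CPM. All treated values lay above all control values, as in 12.3% of tested genes, and the order of the animals was the same in both groups. Tunicamycin over control was 9.77-fold in BW35770, 10.8-fold in BW35772 and 12.3-fold in BW35773. Levels went from 1.94 ± 0.51 to 20.8 ± 3.11 CPM (SD, n = 3). The fitted log2 fold change was 3.42 ± 0.25 without pairing by animal and 3.44 ± 0.18 with the animal as a block (SE, n = 3 cultures per group). The log2 fold change lay between 3.26 and 3.64 over the 18 alternatives to the unpaired fit, single libraries and animals left out included. Those fits draw on the libraries by which Akap3 was chosen, so the range is a description only.

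**Figure D1:**
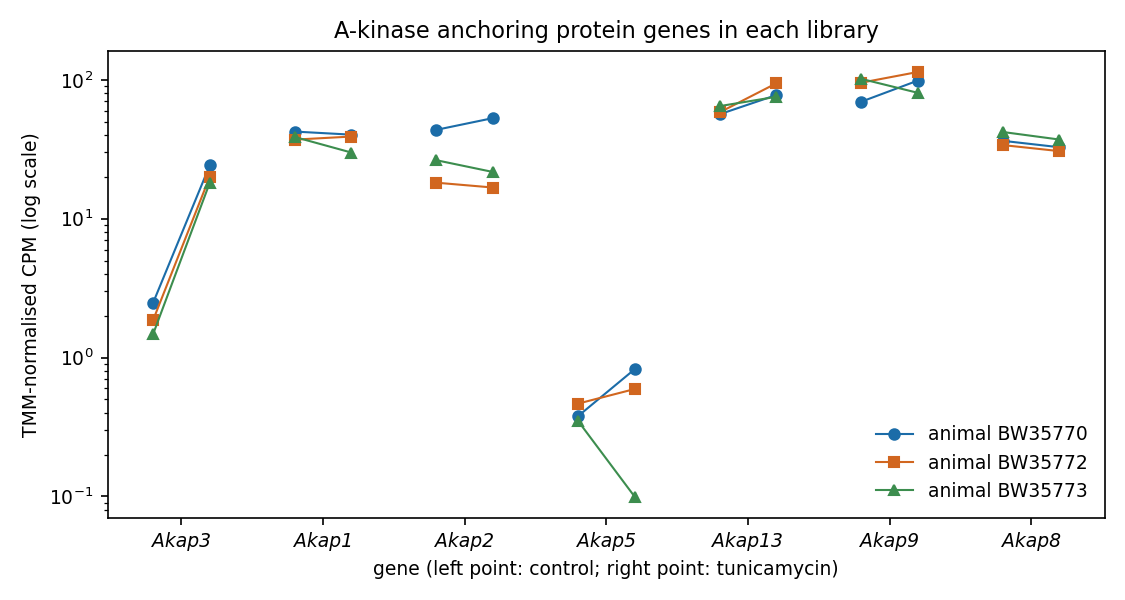
TMM-normalised CPM on a log axis for the 7 measured members, with the control library at the left and the tunicamycin library at the right of each line, and 1 line for each animal. Akap3 went from between 1.48 and 2.48 CPM to between 18.2 and 24.2 CPM in every animal, while the lines of the other members stayed near level or crossed.

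Neither neighbour of Akap3 on the scaffold had a comparable value. Ndufa9, a subunit of mitochondrial complex I on the opposite strand, begins 10724 bases beyond the 5′ end of Akap3. Its controls averaged 112.7 ± 3.70 CPM and its tunicamycin cultures 106.7 ± 16.5 CPM (SD, n = 3). Ndufa9 thus had -0.08 ± 0.14 as its log2 fold change (SE), and edgeR gave an adjusted p = 0.870. Dyrk4, a protein kinase gene on the other side and also on the opposite strand, ends 1795 bases from Akap3 and had at most 1 read in any library. The levels beside Akap3 were thus those of a gene well expressed in both groups and of one hardly detected in either.

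Other genes of the sperm tail were mostly too low to test. Of 17 listed genes of the fibrous sheath and flagellum 15 are named in the table, and only 3 passed the filter on low counts: Odf2, Cabyr and Fsip1. Of these 0 were called by edgeR, against 1 at an unadjusted p under 0.05 and 0 by DESeq2, limma-voom or the block. With 2.58% called over all genes, a count of 0 among 3 is near the background. Akap4, the main partner of Akap3 in the fibrous sheath, had 0 reads in all 6 libraries, which allows up to 3 reads or 0.0574 to 0.0822 CPM in a library. Odf2, which also serves at centrioles, was at 38.2, 32.7 and 37.1 CPM in the controls of BW35770, BW35772 and BW35773 and at 50.5, 48.4 and 40.1 CPM in their tunicamycin cultures. All treated values lay above all control values, as in 12.3% of tested genes. Its log2 fold change of 0.37 ± 0.14 (SE) did not pass the test (edgeR adjusted p = 0.253). Fsip1, which binds the fibrous sheath, was under 0.5 CPM in every library (log2 fold change 0.37 ± 0.70, edgeR adjusted p = 0.885).

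Of the 6 measured members besides Akap3, edgeR called 0 higher or lower with tunicamycin. Over all 13503 tested genes the test called 2.58%, or 1.78% higher and 0.792% lower. At an unadjusted p under 0.05 there was 1 such member, Akap13. DESeq2 also called that gene, and over all tested genes it called 676 higher and 401 lower. Of the 6, limma-voom called 0. The fit with the animal as a block called 0, against 5.47% of all genes (3.07% higher and 2.4% lower). The median log2 fold change of the 6 was 0.10, with a range from -0.16 to 0.46, beside a median of -0.01 over all tested genes.

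**Figure D2:**
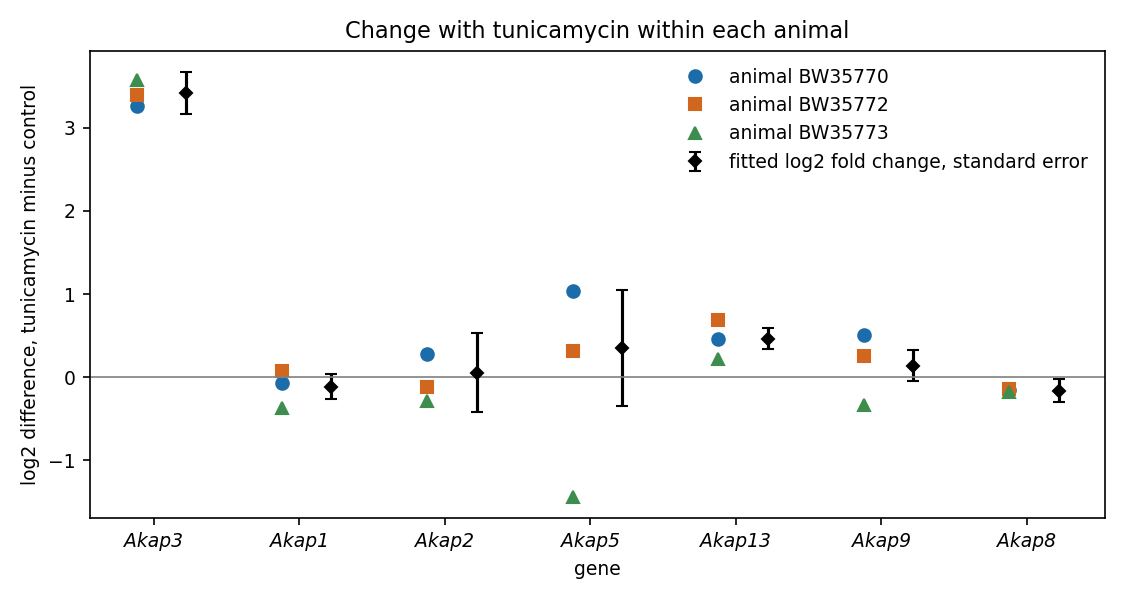
Difference in log2 CPM (prior count 2) between tunicamycin and control within each animal, as coloured points, and the fitted log2 fold change with its standard error as a black diamond, for each measured member. The 3 points of Akap3 lie between 3.26 and 3.58, those of Akap13 between 0.22 and 0.69, and those of Akap5 spread from -1.44 to 1.03.

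At the mitochondrion, Akap1 tethers PKA to the outer membrane and also binds mRNA there. It was measured at 42.4, 37.1 and 38.8 CPM in the controls of BW35770, BW35772 and BW35773 and at 40.3, 39.0 and 29.9 CPM with tunicamycin. The groups overlapped, the treated library of BW35773 being the lowest of the 6. Its difference on the log2 scale was -0.11 ± 0.15 (SE), with a 95% interval from -0.46 to 0.23 (edgeR adjusted p = 0.818). Changes outside 0.727 to 1.18-fold thus lay beyond that interval.

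Akap13, a very large scaffold protein, had the most even difference among the members other than Akap3 that were higher on average. Controls of BW35770, BW35772 and BW35773 stood at 56.5, 58.3 and 64.7 CPM, and their tunicamycin cultures at 77.7, 94.3 and 75.4 CPM. All treated values lay above all control values, as they did in 12.3% of tested genes. The log2 fold change was 0.46 ± 0.13 (SE; 95% interval 0.16 to 0.77) and did not pass the test (edgeR adjusted p = 0.133, or 0.0961 in the blocked fit). It was called higher by DESeq2 (adjusted p = 0.0337) and by the block without animal BW35773 (edgeR adjusted p = 0.0215). When the trend of counts with exon length was taken out of each library, 0.33 was left (edgeR adjusted p = 0.234).

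Akap9 is a giant scaffold of the centrosome and the Golgi, where it helps to start microtubules. Its controls stood at 69.5, 95.3 and 101.7 CPM in BW35770, BW35772 and BW35773, and its tunicamycin cultures at 98.8, 113.9 and 80.6 CPM. It was higher with tunicamycin in BW35770 and BW35772 and lower in BW35773, and the groups overlapped. Its log2 fold change was 0.14 ± 0.19 (SE; 95% interval -0.30 to 0.57, edgeR adjusted p = 0.827), and it was 0.02 once the trend with exon length was removed.

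The longest genes had differences whose sign varied by animal, and the longest members shared those signs only in part. Akap13 (12467 exon bases) and Akap9 (10398) lie above 99.7 and 99.4% of tested genes in annotated exon length or level with them. Over the 1352 genes of at least 4926 exon bases, the longest 10% of those tested, the median difference within a pair was 0.17 in BW35770, 0.22 in BW35772 and -0.22 in BW35773. Over all tested genes it was -0.03, -0.03 and -0.00449. Akap9 had the same signs by animal as the long genes. Akap13 was positive in all 3 pairs and lowest in BW35773. Akap2 (7404 bases), Akap1 (5769) and Akap5 (5309) are also among the longest 10%. Akap5 had the signs of the long genes, Akap2 differed from them in BW35772 (-0.12), and Akap1 differed in BW35770 (-0.07). The part of exon length in either value was not tested beyond the fits named above.

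Akap5 holds PKA, protein kinase C and the phosphatase calcineurin at the cell membrane, chiefly in neurons. It was close to the limit of detection, with 16, 17 and 14 reads in the controls of BW35770, BW35772 and BW35773 and 37, 31 and 4 in their tunicamycin cultures. In CPM these were 0.378, 0.466 and 0.350 against 0.824, 0.593 and 0.0997. The treated libraries thus held both the highest and the lowest level, and the interval of the log2 fold change ran from -1.27 to 1.97 (95%; edgeR adjusted p = 0.891). The differences within pairs were 1.03, 0.32 and -1.44, so that the animals differed in sign.

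Akap8 is a nuclear member linked to chromatin condensation in mitosis. Its controls stood at 36.4, 33.9 and 42.1 CPM in BW35770, BW35772 and BW35773, and its tunicamycin cultures at 32.7, 30.7 and 37.2 CPM. The differences within pairs were close to each other, at -0.15, -0.14 and -0.18, and the groups overlapped because the animals differed by more than that. The same sign in all 3 pairs was seen in 42.4% of tested genes. For Akap8 the log2 fold change was -0.16 ± 0.14 (SE; 95% interval -0.49 to 0.16, edgeR adjusted p = 0.684, and 0.501 with the block). Akap8l, its relative, lies 198 bases away on the same strand and was at 79.2, 79.1 and 72.4 CPM in controls and 115.7, 89.3 and 100.8 CPM with tunicamycin. All treated values of Akap8l lay above all controls, as in 12.3% of tested genes. Its log2 fold change of 0.41 ± 0.13 (SE) did not pass the test (edgeR adjusted p = 0.172). Akap8 and Akap8l are related in sequence, so counts of each are uncertain where the authors' counting could not separate them.

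Akap2 links PKA to the actin cytoskeleton, and its level differed between animals. Controls of BW35770, BW35772 and BW35773 stood at 43.6, 18.2 and 26.4 CPM, and their tunicamycin cultures at 53.0, 16.8 and 21.7 CPM. Both libraries of BW35770 lay above the other 4. For tunicamycin the log2 fold change was 0.05 ± 0.47 (SE, edgeR adjusted p = 0.980). With the block, which takes the animals' levels out, it was -0.04 ± 0.15 (edgeR adjusted p = 0.921).

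The animal terms were tested in a model with treatment and animal, a measure that played no part in choosing the family. Akap2 was called (edgeR adjusted p = 0.0120), as were 3.53% of all tested genes. The mean of its libraries was 48.3 CPM in BW35770, 17.5 CPM in BW35772 and 24.0 CPM in BW35773. Akap3, Akap1, Akap5, Akap8, Akap9 and Akap13 were not called, with edgeR adjusted p from 0.386 for Akap3 to 0.780 for Akap13. The call for Akap2 was lost without the control library of BW35770 (adjusted p = 0.0991) and without its tunicamycin library (0.350), each of which leaves 1 library from that animal. The 2 libraries of an animal share its cells, so the test is of these 3 animals' cultures.

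Cartilage markers moved with the same animals. Their sum was 1896 and 2110 CPM in the control and tunicamycin libraries of BW35770, 8424 and 8981 CPM in those of BW35772, and 7240 and 6195 CPM in those of BW35773. Akap2 was thus highest where the sum over 8 cartilage markers was lowest, and fibroblast markers were likewise lowest in BW35770. Macrophage markers were highest there, at a sum of 175.5 and 153.5 CPM against 69.1 to 122.0 CPM in the other animals, nearly all of it Cd68. Endothelial markers were also highest there, at 4.75 and 4.01 CPM against at most 1.53 CPM, mostly Pecam1. The part of these differences in the level of Akap2 was not tested.

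**Figure D3:**
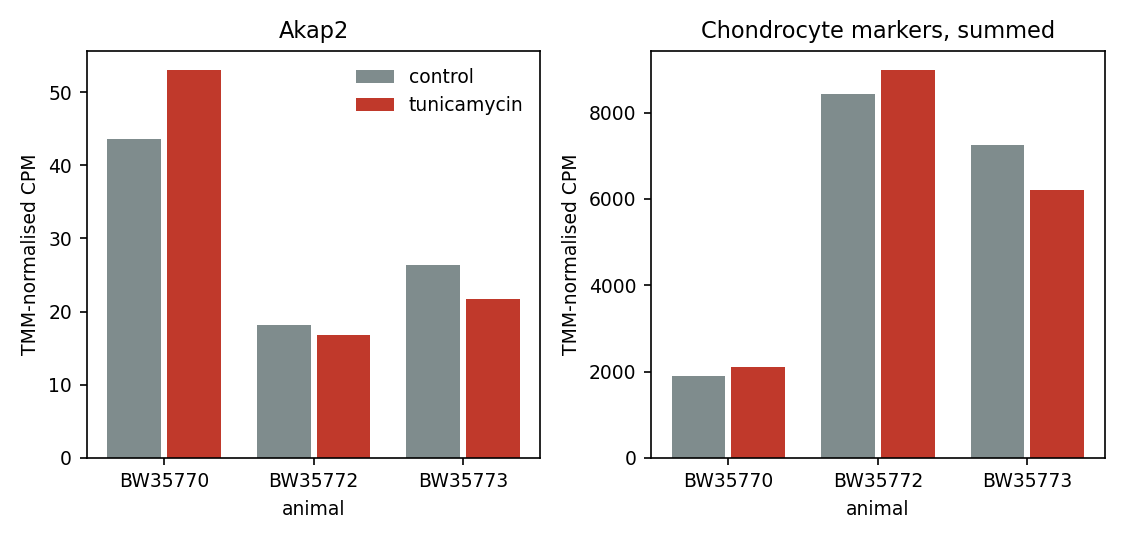
TMM-normalised CPM of Akap2 (left) and of 8 cartilage markers summed (right), as 1 bar for each library, by animal and treatment. Akap2 stood at 43.6 and 53.0 CPM in BW35770 and at 16.8 to 26.4 CPM in the other animals, while the cartilage sum was 1896 and 2110 CPM in BW35770 and at least 6195 CPM in the others.

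Levels of different genes were compared as CPM per kilobase of annotated exon. In controls Akap8 was highest at 10.1 ± 1.14, followed by Akap9 at 8.54 ± 1.64, Akap1 at 6.83 ± 0.47, Akap13 at 4.80 ± 0.34 and Akap2 at 3.97 ± 1.76 (SD, n = 3). Akap3 followed at 0.707 ± 0.185 and Akap5 at 0.0750 ± 0.0114. Compared within each animal, neighbours in this order changed places in at least 1 of the 3, except that Akap1 lay above Akap13, Akap2 above Akap3 and Akap3 above Akap5 in all 3. With tunicamycin the order became Akap9 (9.40 ± 1.603), Akap8 (9.06 ± 0.90), Akap3 (7.59 ± 1.14), Akap13 (6.61 ± 0.83), Akap1 (6.31 ± 0.98), Akap2 (4.12 ± 2.66) and Akap5 (0.0952 ± 0.0697). Here Akap2 lay above Akap5 and Akap8 above Akap3 in all 3 animals, the latter by little in BW35770 (8.842 against 8.837), and the other neighbours changed places. The ranges of Akap8 and Akap3 overlapped, from 8.29 to 10.05 and from 6.62 to 8.84.

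Akap3 made up 2.57, 2.08 and 1.45% of the summed per-length level of the 7 members in the controls of BW35770, BW35772 and BW35773, and 18.5, 16.9 and 17.1% in their tunicamycin cultures. The sum itself was 35.1 ± 2.29 in controls and 43.2 ± 4.55 with tunicamycin (CPM per kilobase; SD, n = 3). Without Akap3 it was 34.4 ± 2.35 and 35.6 ± 3.45, and the groups overlapped. These shares rest on the annotated exon lengths and cover only the measured members.

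**Figure D4:**
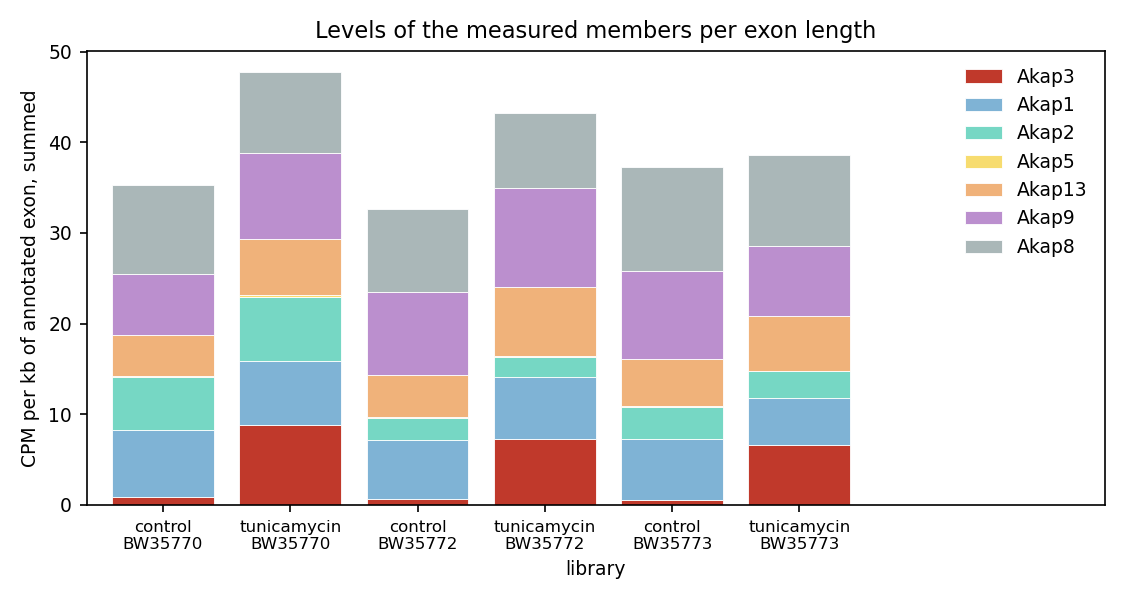
Levels of the 7 measured members in CPM per kilobase of annotated exon, stacked, with 1 bar for each library. The band of Akap3 at the base rises from 0.538 to 0.905 in controls to between 6.62 and 8.84 with tunicamycin, while the other bands sum to between 32.0 and 38.9 in all 6 libraries.

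The genes around PKA were mostly not called. Of 77 distinct tested genes on 8 lists for PKA, cAMP and anchoring, 2 rose and 0 fell, which is 2.597% against 2.58% of all tested genes. At an unadjusted p under 0.05 there were 13. No share over all genes was taken at that cut. This count, and those at the same cut for members, markers and single lists, thus have no background and are not read as results. DESeq2 called 5, and over all 13503 tested genes it called 676 higher and 401 lower. By limma-voom 2 were called, against 218 higher and 104 lower over all genes. The block called 3 higher and 1 lower, against 5.47% of all genes. The 77 genes had a median log2 fold change of 0.04, beside -0.01 over all tested genes.

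Of 10 PKA subunits and inhibitors 0 were called by edgeR, 1 was under 0.05 unadjusted, and 0 were called by DESeq2, limma-voom or the block. The regulatory subunits that anchoring proteins bind were led by Prkar1a at 77.1 ± 6.88 and Prkar2a at 25.8 ± 3.14 CPM per kilobase in controls (SD, n = 3), with Prkar2b at 1.32 ± 0.15. Their log2 fold changes were -0.14 ± 0.11 for Prkar1a, -0.18 ± 0.15 for Prkar2a and -0.35 ± 0.32 for Prkar2b (SE). The main catalytic subunit gene, Prkaca, had -0.05 ± 0.12, with a 95% interval from -0.33 to 0.22. Pkig, a peptide inhibitor of the catalytic subunit, had the smallest p of the list, with 38.0, 35.7 and 30.0 CPM in controls and 26.8, 24.8 and 28.4 CPM with tunicamycin (edgeR adjusted p = 0.248). Prkacb, another catalytic subunit, came next (log2 fold change -0.25 ± 0.19, SE).

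Among enzymes that make and destroy cAMP, 0 of 6 adenylyl cyclases and 0 of 11 phosphodiesterases were called by edgeR, DESeq2, limma-voom or the block, with 1 and 2 under 0.05 unadjusted. With the exon-length trend removed and the block, 2 of each were called lower. Over all tested genes that fit called 728 higher and 752 lower. Adcy6 had a log2 fold change of -0.33 ± 0.14 and Adcy9 of -0.35 ± 0.22 (SE). The phosphodiesterases Pde7b and Pde3b had -0.63 ± 0.24 and -0.48 ± 0.19. All treated values of Adcy6, Pde7b and Pde3b lay below all control values, as in 9.98% of tested genes.

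Of 7 CREB factors and coactivators, which carry the cAMP signal to genes, 1 rose and 0 fell by edgeR, against 2.58% called over all tested genes. That gene was Crebbp, a histone acetyltransferase that binds phosphorylated CREB. It stood at 42.8, 46.7 and 46.3 CPM in the controls of BW35770, BW35772 and BW35773 and at 81.1, 103.1 and 72.6 CPM with tunicamycin. The log2 fold change was 0.92 ± 0.15 (SE, edgeR adjusted p = 0.0258, higher in 3 of 3 animals). Leaving out 1 control library ended the call, whether of BW35770 (edgeR adjusted p = 0.109), of BW35772 (0.137) or of BW35773 (0.134). So did leaving out the tunicamycin library of BW35770 (0.0762) or that whole animal in the blocked fit (0.164).

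Of 15 known cAMP response genes 1 rose and 0 fell by edgeR, which called 2.58% of all tested genes, and 3 were under 0.05 unadjusted. DESeq2 called 3 (Per1 and Gem higher, Dusp1 lower), and over all tested genes it called 676 higher and 401 lower. The gene that rose was Per1, a clock gene whose promoter answers to CREB, at 13.5, 19.7 and 15.8 CPM in controls and 34.6, 47.9 and 34.8 CPM with tunicamycin. The log2 fold change was 1.26 ± 0.20 (SE, edgeR adjusted p = 0.0229, higher in 3 of 3 animals). Its call was lost in the same 5 fits as that of Crebbp (0.0919, 0.0758, 0.132, 0.0563 and 0.0634, in that order). With the block Gem, a small GTPase, was also called higher (log2 fold change in the unblocked fit 1.68 ± 0.39) and the phosphatase Dusp1 lower (-0.69 ± 0.15; SE, edgeR adjusted p with the block 0.0208 and 0.0218). Over all tested genes the block called 5.47%. Nr4a1, Fos and Sik1, widely used readouts of cAMP, had log2 fold changes of -0.25 ± 0.19, 0.37 ± 0.24 and -0.34 ± 0.19 (SE) and were not called.

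Of 14 other anchoring proteins 0 were called by edgeR, limma-voom or the block, 3 were under 0.05 unadjusted and DESeq2 called 1, Rab32. Over all tested genes DESeq2 called 676 higher and 401 lower. Rab32, a small GTPase that brings PKA to mitochondria, stood at 10.3, 9.21 and 11.4 CPM in controls and 13.0, 18.0 and 19.2 CPM with tunicamycin (log2 fold change 0.70 ± 0.20, SE; edgeR adjusted p = 0.137, DESeq2 adjusted p = 0.0197). Of 14 kinases, phosphatases and GTPases that anchoring proteins hold beside PKA, 0 were called by edgeR, DESeq2, limma-voom or the block, and 1 was under 0.05 unadjusted. That gene was Pdpk1, a kinase that activates PKA and its relatives (log2 fold change 0.55 ± 0.23, SE; edgeR adjusted p = 0.299). Ppp3cc, a calcineurin catalytic subunit, had 0.19 ± 0.16.

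**Figure D5:**
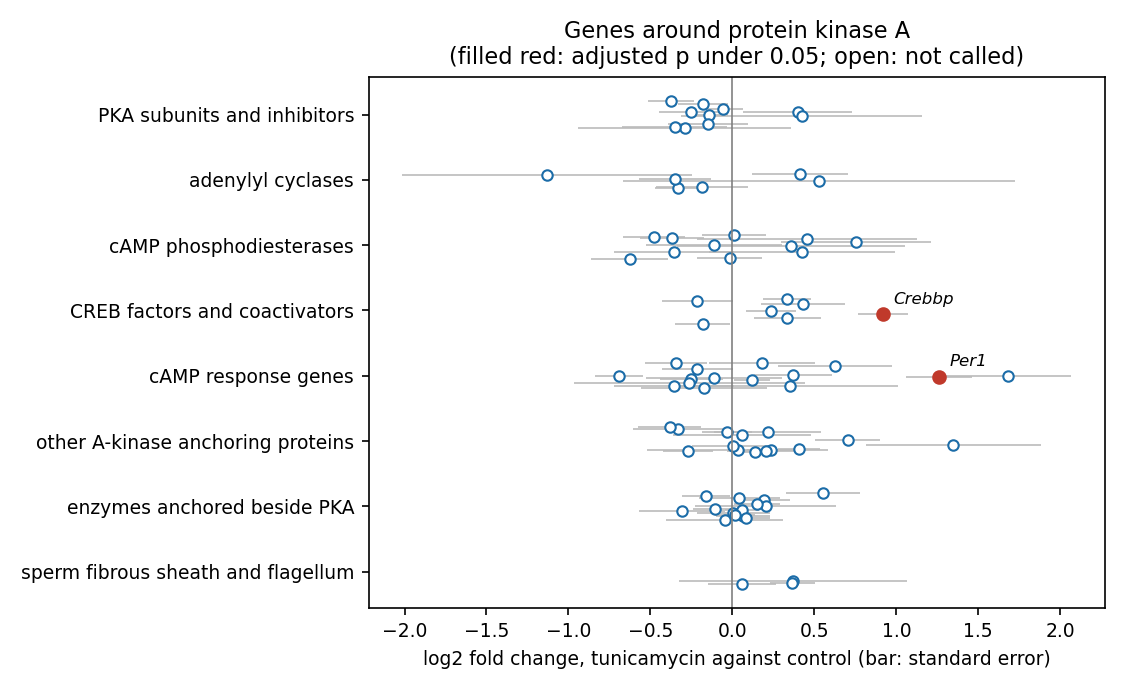
Log2 fold change with tunicamycin for each tested gene of the 8 lists around PKA, with bars for the standard error. Filled red points passed an adjusted p under 0.05 in edgeR, and open points did not. Only Crebbp (0.92) and Per1 (1.26) are filled.

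Across the 6 libraries the log2 CPM of Akap3 was followed most closely by Zfand2a, Stx5a, Mthfsd, Zfp956, Cars and Zfp13 among 8902 named genes outside the family at the same minimum level, with Pearson's r from 0.996 to 0.999. The points share libraries and fall into 2 treatment groups, and 5.55% of those genes had an r over 0.9, so these values are a description only. Zfand2a, a stress-induced partner of the proteasome, went from 9.47 ± 1.44 to 38.5 ± 2.11 CPM (SD, n = 3). Stx5a, a SNARE protein of traffic between the ER and the Golgi, went from 88.6 ± 5.10 to 180.7 ± 4.73 CPM. Cars, which charges cysteine tRNA, went from 89.4 ± 14.1 to 290.0 ± 14.2 CPM. Mthfsd went from 12.8 ± 0.49 to 19.8 ± 0.74 CPM and Zfp956 from 3.10 ± 0.23 to 6.16 ± 0.25 CPM. Zfp13 went from 6.86 ± 0.52 to 11.6 ± 0.56 CPM. Mthfsd, Zfp956 and Zfp13 were not called in the unblocked fit (edgeR adjusted p = 0.0637, 0.0586 and 0.0701) or by limma-voom. The block called each of them (edgeR adjusted p = 0.0496, 0.0443 and 0.0477). So did DESeq2 (adjusted p = 0.00024, 9.1e-05 and 0.00035). These genes were picked by likeness to Akap3, itself chosen by this comparison, so the calls are a description only. Among the members, the r with Akap3 was 0.85 for Akap13, 0.24 for Akap9, 0.06 for Akap2, 0.05 for Akap5, -0.30 for Akap1 and -0.61 for Akap8.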

How the data were processed

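The deposited table holds raw read counts per gene for 6 directional RNA-seq libraries, with scaffold, exon bounds and exon length in bases as another deposited column. Per the submitters' processing notes, STAR 2.6.1, SAMtools 1.6 and featureCounts of Subread were used. Build, annotation release and the handling of multi-mapping reads: not given in the sources used here. Strand use in counting is stated only by the table's title. Columns were matched to libraries by the S1 to S6 descriptions.

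The test was run in edgeR 4.0.16 (R 4.3.3) with filterByExpr (minimum count 10, minimum total 15; 13503 genes), TMM, quasi-likelihood test, Benjamini-Hochberg adjustment over all tested genes, threshold 0.05. All 7 measured members passed the filter. The SE is the log2 fold change divided by the square root of F. Animal numbers in the titles pair libraries. The main test had no term for the animal. Deviations from group means correlated at 0.66, 0.41 and 0.22 within animals, so a second fit took the animal as a block.

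Members, lists and tests were chosen with earlier results of these data known. Text names the members, called list genes or else each list's 2 smallest p-values, the neighbours of Akap3 and the 6 genes most like it. Prkar1a, Prkar2a, Prkar2b, Prkaca, Nr4a1, Fos, Sik1, Gem, Dusp1, Cabyr and Akap4 and the marker genes were picked with their values in view. The alternatives were scalings and filters, DESeq2 1.42.0, limma-voom (limma 3.58.1), the block, libraries or animals left out, and, chosen after seeing the data, removal of the exon-length trend (lowess span 0.3) and the animal test without single libraries. Steps were tested on simulated data.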

Additional observations from a re-analysis of the deposited data

How the results depend on the processing

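Akap8 and Akap13 kept their direction in all 18 alternatives, as did Akap3, which was chosen by its value in these libraries. Members other than Akap3 called higher numbered 0, but 1 (Akap13) with DESeq2, and 0 to 1 when an animal was left out under the replicate block. None was called lower in any alternative run. Genes called higher numbered 241, and 676 with DESeq2, 415 with the replicate block, 728 with the exon-length trend removed and the replicate block, 46 to 79 without 1 control library, 97 to 313 without 1 tunicamycin library, and 74, 497 and 806 without BW35770, BW35772 or BW35773 under the block. Genes called lower numbered 107, and in the same order 401, 324, 752, 15 to 34, 37 to 251, and 37, 451 and 826, with 199 when only the exon-length trend was removed. The log2 fold change of Akap2, not called in any fit, was -0.061 with limma-voom, -0.036 with the replicate block, -0.055 without the exon-length trend and -0.12 with both. Without 1 control library, 1 tunicamycin library or 1 animal (with the block) it ran from -0.17 to 0.45, -0.61 to 0.36 and -0.199 to 0.12. That of Akap5 was -0.030 with limma-voom, and -0.17 to 0.85 without 1 tunicamycin library and -0.54 to 0.76 without 1 animal, among them -0.046 without BW35772. That of Akap9 ran from -0.011 to 0.25 without 1 control, 0.025 to 0.28 without 1 tunicamycin library and -0.038 to 0.41 without 1 animal, and that of Akap1 from -0.19 to 0.030 without 1 tunicamycin library and -0.22 to 0.027 without 1 animal. In the animal test 477 genes were called, and 789 without a filter, 1045 with DESeq2, 64 to 1997 without 1 control and 74 to 670 without 1 tunicamycin library, with 0 to 1 members. Without 1 library or animal the genes called higher numbered 0 to 3 on the lists of CREB factors and of cAMP response genes and 0 to 1 on those of adenylyl cyclases and of the sperm tail. With the exon-length trend removed and the replicate block, 2 adenylyl cyclases, 2 phosphodiesterases and 2 cAMP response genes were called lower and 1 other anchoring protein and 2 cAMP response genes higher. Upper-quartile factors, the stricter filter and removal of the exon-length trend alone each called 1 cAMP response gene lower. The block changed the call of no member. The causes were not tested. The DESeq2 size factors moved the median of all genes by 0.0114 on the log2 scale. Akap5 rests on 4 to 37 reads a library, and each group on 3 animals.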
